A study of Mus musculus with 23 samples.

Results

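In the cortex of adult mice that carried 1 copy of a substituted H3f3a gene, 10 genes were lower than in wild type (WT) with each of 3 substitutions. They were Minar2, Acsl5, Zdhhc1, Hrasls, Bok, Arhgef15, Ccdc3, Simc1, Cib2 and Sowahb, 10 of 39017 genes in the deposited count table. They were chosen from the comparisons with WT at 10 weeks in these same animals, so those comparisons are given as a description, without a test. Total RNA from whole cortex of 22 mice had been sequenced after ribosomal RNA depletion. At 10 weeks there were 6 WT animals, 3 heterozygous for glycine 34 to arginine (G34R), 3 for valine (G34V) and 2 for tryptophan (G34W), all male by label except G34W replicate 2, whose title begins with M, as those of males do, while its sex label is female. At postnatal day 7 there were 4 WT and 4 heterozygous G34R animals, 2 males and 2 females of each. The labels give no strain, no other allele and no treatment, and name no promoter or Cre driver. Each animal has its own number in the labels, which do not name litters.

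H3f3a encodes the histone variant H3.3, which replaces canonical H3 in chromatin outside DNA replication and is a main form of H3 in neurons. Glycine 34 lies beside lysine 36, and its substitution hinders methylation of that lysine on the same histone tail. Methylated lysine 36 is read by the DNA methyltransferase DNMT3A, which is abundant in the maturing cortex, and the series addresses how single substitutions alter its recruitment. The 10 genes do not form a known pathway. Acsl5, Hrasls and Zdhhc1 encode enzymes of fatty acids and lipid-modified proteins. Minar2, Arhgef15, Cib2 and Bok encode proteins of membranes, signalling and cell death. Simc1 encodes a nuclear protein, Ccdc3 a secreted protein and Sowahb an ankyrin-repeat protein of little-described function.

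Promoter sequences were read at the start regions of these genes. RefSeq promoters of GRCm38.p6 matched 8 of the 10 genes, with 9 start sites, and none was matched for Minar2 or Arhgef15. The 250 bases before the start are printed 5′ to 3′ on the strand of the gene for 3 genes, with each CpG, the site of DNA methylation, in capitals. Hrasls (chr16:29209445-29209694, plus strand) and Sowahb (chr5:93045023-93045272, minus strand) are shown because they were among the most reduced genes and differ widely in CpG number. Their contrast therefore follows from the choice of what to print. Zdhhc1 (chr8:105497063-105497312, minus strand) is shown because it was also lower at day 7.
Hrasls: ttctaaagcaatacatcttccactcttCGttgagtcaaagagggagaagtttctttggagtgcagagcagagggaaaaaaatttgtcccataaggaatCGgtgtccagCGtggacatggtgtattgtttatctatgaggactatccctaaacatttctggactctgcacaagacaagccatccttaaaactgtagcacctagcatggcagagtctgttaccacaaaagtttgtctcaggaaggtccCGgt
Sowahb: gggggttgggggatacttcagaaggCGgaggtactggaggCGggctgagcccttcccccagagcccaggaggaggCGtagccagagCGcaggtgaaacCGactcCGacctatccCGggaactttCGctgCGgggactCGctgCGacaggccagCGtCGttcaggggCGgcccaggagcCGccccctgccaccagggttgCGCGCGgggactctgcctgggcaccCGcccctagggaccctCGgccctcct
Zdhhc1: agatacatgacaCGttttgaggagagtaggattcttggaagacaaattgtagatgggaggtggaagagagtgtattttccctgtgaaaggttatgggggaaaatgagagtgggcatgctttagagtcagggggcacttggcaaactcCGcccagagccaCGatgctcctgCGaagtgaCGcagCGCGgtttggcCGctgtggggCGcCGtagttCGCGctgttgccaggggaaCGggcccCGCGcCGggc
The Hrasls window held 4 CpG and 44.0% G or C, Sowahb 20 CpG and 70.8%, and Zdhhc1 16 CpG and 57.2%. A second Hrasls start (chr16:29209858-29210107) held 15 CpG, and the Acsl5 window held 7 and the Bok window 12. Of the 9 windows, 5 had over 50% G or C and a ratio of observed to expected CpG over 0.6, as did 30.8% of 32841 promoter windows of the same length. The GC box GGGCGG, searched on both strands, was in 6 of the 9 windows and in 32.7% of all windows. The E-box CACGTG and the cyclic AMP response element TGACGTCA, each its own reverse complement, were in 0 of the 9, against 6.02% and 1.55% of all windows. No methylation or binding data were analysed here.

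Libraries held 32.3 to 90.1 M counts (M, mega) in 10-week animals and 28.4 to 53.5 M in day-7 animals. The libraries fell into 2 sets by the share of counts in mitochondrial protein-coding genes, under or over 1.1%. All G34R and all day-7 libraries were in the lower set, all G34V and G34W libraries in the higher set, and WT libraries at 10 weeks in both. H3f3a itself was 41.5 to 49.8 CPM (counts of the gene per mega of library counts) in WT at 10 weeks and 38.4 to 45.6 in the 8 mutants, and passed the test in none of the 3 comparisons. A count per gene is blind to the altered codon and is no check of genotype. At day 7 H3f3a was 69.8 to 75.3 CPM in WT and 59.4 to 63.0 in G34R (log2 fold change -0.25, SE 0.0416, edgeR adjusted p = 0.0428), a call that ended without any 1 of the 8 animals (edgeR adjusted p from 0.0952 to 0.211).

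All 10 genes were lower than WT at 10 weeks in every one of the 8 mutant animals. Levels are CPM scaled by trimmed mean of M-values over the 22 animals, and they are not set against each other between genes, since they are not per length. Log2 fold changes come from an edgeR fit of the 14 animals at 10 weeks, and a gene is called when its Benjamini-Hochberg adjusted p is under 0.05 in edgeR's quasi-likelihood test. In the whole table of 21274 tested genes, 2.66% were called lower in G34R, 2.68% in G34V and 1.05% in G34W, and 90 genes, or 0.423%, in all 3. The 10 genes are among those 90 by the way they were chosen. In 350 genes, or 1.65%, every mutant lay below every WT animal, and these include all 10. Whole cortex was measured, so fewer cells of a type and less RNA per cell cannot be told apart.

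Among the enzymes of lipid metabolism, Acsl5 joins long-chain fatty acids to coenzyme A (chr19:55251938-55297720). Its level in WT was 72.0 CPM at the lowest, 80.4 at the median and 90.6 at the highest. The G34R animals had 35.3, 37.5 and 34.7 CPM, the G34V animals 39.7, 42.3 and 41.1, and the G34W animals 42.8 and 54.5. Acsl5 was thus well separated from WT in each mutant group, and G34W replicate 2 had the highest level of any mutant. The log2 fold changes were -1.16 (SE 0.0808) in G34R, -0.96 (SE 0.0799) in G34V and -0.71 (SE 0.0927) in G34W.

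Hrasls, also named Plaat1, encodes a phospholipase and acyltransferase that acts on phospholipids (chr16:29209695-29230531). Levels in WT ran from 17.7 through a median of 18.6 to 21.8 CPM. They were 4.79, 2.86 and 5.71 CPM in G34R, 4.28, 3.28 and 3.62 in G34V, and 8.44 and 7.46 in G34W. The G34R and G34V ranges overlapped, and both lay below the G34W animals. Hrasls was 4.27-fold lower than WT in G34R, 5.14-fold lower in G34V and 2.41-fold lower in G34W (log2 fold changes -2.09, -2.36 and -1.27, SE 0.161, 0.165 and 0.182).

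Zdhhc1 encodes a palmitoyltransferase of the DHHC family, enzymes that attach fatty acids to cysteines of proteins (chr8:105472423-105496902). WT animals had 16.2 to 19.9 CPM, with a median of 18.8. The G34R animals lay close together at 8.18, 8.09 and 7.77 CPM, the G34V animals were lower at 5.66, 7.53 and 6.82, and the G34W animals higher at 11.5 and 10.7. No mutant group overlapped another. The log2 fold changes against WT were -1.21 (SE 0.0949), -1.47 (SE 0.0969) and -0.74 (SE 0.109) in G34R, G34V and G34W.

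Among the proteins of membranes and signalling, Minar2 had the largest decrease in G34R. It is listed in the count table under an older symbol, and encodes a membrane protein related to the NOTCH2-associated receptor Minar1 and needed for hearing. Its WT levels spanned only 15.5 to 17.4 CPM, with a median of 16.4. G34R animals had 3.40, 3.51 and 3.12 CPM, G34V animals 5.19, 4.47 and 5.22, and G34W animals 7.49 and 6.59. The 4 groups were fully separated, in the order G34R, G34V, G34W, WT. Against WT, Minar2 was 4.90-fold lower in G34R and 2.33-fold lower in G34W, with G34V between them (log2 fold changes -2.29, -1.72 and -1.22, SE 0.0931, 0.0893 and 0.103).

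Arhgef15 encodes ephexin-5, an activator of the GTPase RhoA that restrains excitatory synapse formation and is also expressed in vascular endothelium (chr11:68943155-68957480). WT levels were 11.1 to 13.99 CPM, with a median of 13.3. They were 6.25, 5.38 and 5.44 CPM in G34R, 6.36, 6.61 and 5.63 in G34V, and 6.07 and 7.41 in G34W. The 3 mutant groups overlapped each other. The log2 fold changes were -1.18 (SE 0.107), -1.06 (SE 0.107) and -0.93 (SE 0.126).

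Cib2 encodes a calcium- and integrin-binding protein of the mechanotransduction complex of inner-ear hair cells (chr9:54544794-54560218). WT levels were 12.8 to 15.9 CPM, with a median of 14.5. G34R animals had 8.25, 7.44 and 7.37 CPM, G34V animals 9.08, 8.85 and 8.69, and G34W animals 10.4 and 9.75. The mutant groups did not overlap. The decreases were among the smallest of the 10 genes, with log2 fold changes of -0.91 (SE 0.0828), -0.70 (SE 0.0819) and -0.52 (SE 0.0958).

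Bok encodes a BCL2-family protein that promotes cell death and resides mainly at the endoplasmic reticulum (chr1:93685660-93695764). WT levels were 40.7 to 45.2 CPM, with a median of 42.3. They were 23.9, 20.7 and 17.4 CPM in G34R, 25.1, 21.4 and 24.5 in G34V, and 21.7 and 20.6 in G34W. All 3 mutant groups overlapped, and G34W was not the mildest here. The log2 fold changes were -1.04 (SE 0.0852), -0.84 (SE 0.0844) and -1.01 (SE 0.101).

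Simc1 encodes a nuclear protein that binds SUMO and the SMC5/6 chromosome complex (chr13:54503779-54551290). Its WT levels were 15.5 to 16.6 CPM, with a median of 16.0. G34R animals had 8.54, 8.01 and 8.48 CPM, G34V animals 8.75, 9.75 and 7.96, and G34W animals 10.8 and 12.6. The G34W animals were nearest to WT, and the log2 fold changes were -0.94 (SE 0.0824), -0.86 (SE 0.0822) and -0.45 (SE 0.0944).

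Ccdc3 encodes a secreted coiled-coil protein described in fat tissue and endothelium (chr2:5137776-5230878). WT levels were 11.9 to 15.1 CPM, with a median of 13.3. They were 6.60, 6.17 and 5.14 CPM in G34R, 4.65, 5.26 and 5.26 in G34V, and 7.41 and 8.53 in G34W. The G34W animals lay above all other mutants. The log2 fold changes were -1.17 (SE 0.107), -1.41 (SE 0.110) and -0.75 (SE 0.124).

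Sowahb, an ankyrin-repeat gene of the SOWAH family (chr5:93041123-93045022), varied most among WT animals. WT levels ran from 16.1 through a median of 21.3 to 27.1 CPM. G34R animals had 7.94, 7.92 and 7.42 CPM, G34V animals 4.75, 6.45 and 3.79, and G34W animals 5.50 and 7.16. G34R was the mildest group for Sowahb alone among the 10 genes, and the G34V and G34W animals overlapped. It was 2.75-fold lower in G34R, 4.26-fold in G34V and 3.34-fold in G34W (log2 fold changes -1.46, -2.09 and -1.74, SE 0.185, 0.195 and 0.228).

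**Figure D1:**
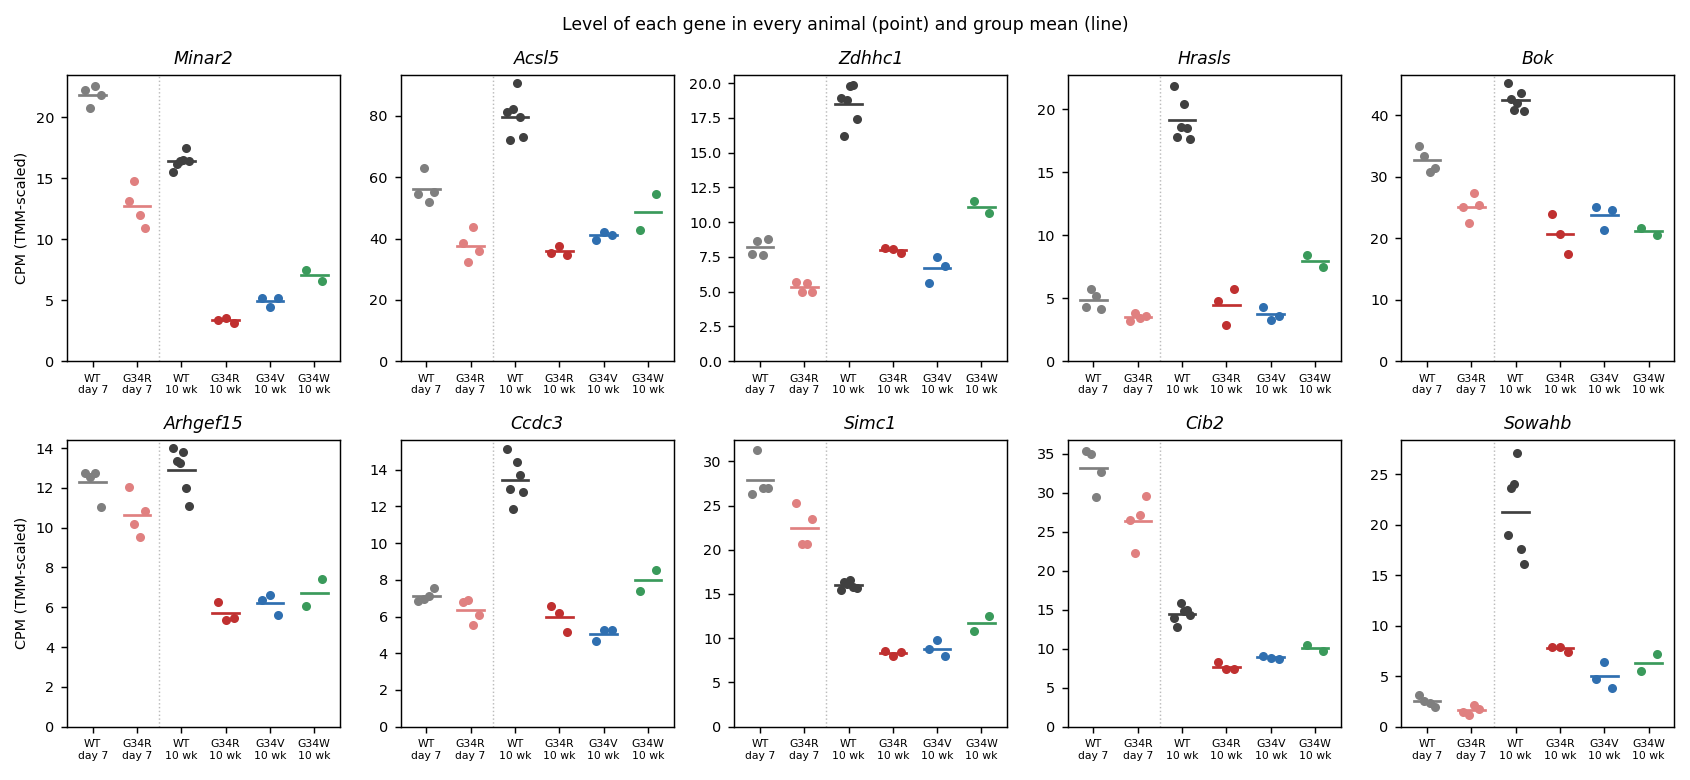
Level of each of the 10 genes in CPM (linear axis from 0), with 1 point per animal and a line at the group mean, for WT and G34R at day 7 and WT, G34R, G34V and G34W at 10 weeks. At 10 weeks every mutant point lies below every WT point in all 10 panels, and Minar2 shows 4 separate groups.

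As a share of the WT mean at 10 weeks, single mutant animals held from 14.9% (Hrasls, a G34R animal) to 78.5% (Simc1, a G34W animal), while single WT animals lay between 75.6% and 128%. Group means in G34R were lowest for Minar2 at 20.4% and highest for Cib2 at 53.3%. In G34V they ran from 19.5% for Hrasls to 61.5% for Cib2, and in G34W from 29.8% for Sowahb to 72.9% for Simc1. Group means were the highest of the mutants in G34W for 8 of 10 genes, the exceptions being Bok and Sowahb. G34R had the lowest mean for 6 genes and G34V for 4 (Zdhhc1, Hrasls, Ccdc3 and Sowahb). The order of the group means was therefore not shared by the 10 genes, in mutant groups of 2 or 3 animals. The exceptions were not called, Bok between G34V and G34W (edgeR adjusted p = 0.574) and Sowahb between G34R and G34W (edgeR adjusted p = 0.573). None of the 4 genes with the lowest mean in G34V was called between G34R and G34V.

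**Figure D2:**
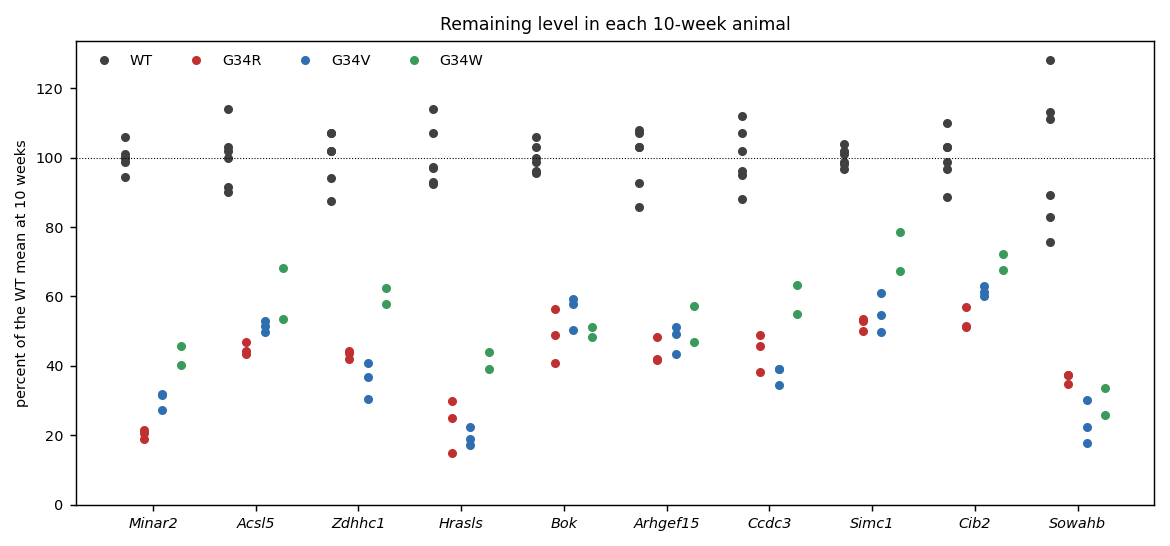
Level of each gene in each 10-week animal as a percentage of the WT mean (linear axis from 0), with 1 point per animal and WT, G34R, G34V and G34W in separate colours. G34W points are the uppermost mutant points for most genes, and Sowahb and Bok depart from that order.

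The within-set comparison used only WT libraries of the library set that holds the mutant. All 30 log2 fold changes kept their sign, from -2.26 to -0.88 in G34R, -2.25 to -0.74 in G34V and -1.64 to -0.48 in G34W. The same animals chose the genes, and every mutant lay below every WT animal, so the sign could hardly turn. The values therefore describe the size of the decreases and do not test them. The largest shift from the value over all animals was 0.162, for Sowahb in G34R. Between the WT libraries of the 2 sets, the log2 difference of means was largest for Sowahb at 0.28 and Hrasls at 0.24, both higher in the lower set.

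The substitutions were then compared with each other in the fit of all 14 animals, where WT enters the estimate of spread but not the contrast. The mutant levels compared are those that entered the choice of the genes. G34R and G34V differed in 1 gene of 10, Minar2, which was lower in G34R, with a log2 difference of -0.57 (SE 0.102, edgeR adjusted p = 0.0211). Of all genes, 0.23% were called between the same groups in either direction. In 3 of 10 genes every G34R animal lay below every G34V animal, against 9.42% of all genes. Sowahb and Zdhhc1 lay the other way without overlap, higher in G34R by log2 differences of 0.63 (SE 0.212, edgeR adjusted p = 0.289) and 0.26 (SE 0.108, edgeR adjusted p = 0.394), and did not pass. The Minar2 call ended without any 1 of the 3 G34R animals, G34V replicate 1 or G34V replicate 3, with edgeR adjusted p from 0.0517 to 0.174.

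G34R against G34W gave the most differences, 4 of 10, all lower in G34R, where 1.88% of all genes were called in either direction. Minar2 had a log2 difference of -1.07 (SE 0.112, edgeR adjusted p = 0.000140), which is a 2.10-fold lower level, and passed without any 1 of the 14 animals but not with runs of animal numbers as a block (-0.99, edgeR adjusted p = 0.0673). Simc1 differed by -0.49 (SE 0.104, edgeR adjusted p = 0.0258), Acsl5 by -0.45 (SE 0.0995, edgeR adjusted p = 0.0300) and Hrasls by -0.82 (SE 0.196, edgeR adjusted p = 0.0425). With that block 0 of the 4 passed. Each of those last 3 calls ended without 1 animal or another: Simc1 and Acsl5 without any G34R animal or G34W replicate 2, and Hrasls without 9 of the 14 animals in turn. Zdhhc1 just missed the threshold (log2 difference -0.47, SE 0.119, edgeR adjusted p = 0.0519). In 7 of 10 genes the G34R animals all lay below both G34W animals, as in 16.1% of all genes. All G34R libraries were in the lower mitochondrial set and all G34V and G34W libraries in the higher one, so substitution and library set cannot be told apart in either comparison with G34R.

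G34V and G34W shared the higher set, and 2 of 10 genes differed between them, against 0.15% of all genes called in either direction. No substitution shared a run of consecutive animal numbers with another, so substitution and run cannot be told apart between mutants except through WT. Both were lower in G34V, Zdhhc1 by a log2 difference of -0.73 (SE 0.119, edgeR adjusted p = 0.0170) and Hrasls by -1.09 (SE 0.198, edgeR adjusted p = 0.0383). Within the higher set alone Zdhhc1 did not pass (log2 difference -0.73, edgeR adjusted p = 0.0612). With runs of animal numbers as a block neither gene passed (Zdhhc1 -0.64, edgeR adjusted p = 0.432, and Hrasls -1.10, edgeR adjusted p = 0.382). The Zdhhc1 call also ended without G34V replicate 1 or G34W replicate 1, and the Hrasls call without any 1 G34V animal, G34W replicate 1, G34R replicate 1 or WT replicate 5. Ccdc3 (log2 difference -0.66, edgeR adjusted p = 0.0633) and Minar2 (-0.50, edgeR adjusted p = 0.0801) did not pass. The number of genes with every G34V animal below both G34W animals was 7 of 10, against 13.5% of all genes. G34W had 2 animals, 1 of each sex, by the sex label, so sex and animal cannot be told apart in that group.

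Day 7 asked whether the genes were already lower in G34R soon after birth. These are other animals than those at 10 weeks, but the day-7 values were known when the 10 genes were picked from the 90, so they are not independent of the choice. All 10 log2 fold changes were below 0, with a median of -0.42 against 0.00 over all 20451 genes tested. The test called 2 genes lower, Minar2 and Zdhhc1, against 0.196% of all genes. In 6 of 10 genes every G34R animal lay below every WT animal (Minar2, Zdhhc1, Acsl5, Bok, Hrasls and Simc1), as in 2.92% of all genes. The fit held sex as a covariate.

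Minar2 in WT at day 7 was 22.2, 20.7, 22.5 and 21.8 CPM, and in G34R 13.2, 14.7, 11.98 and 10.9. The groups were well apart, and the G34R mean of 12.7 ± 1.65 (SD, n = 4) was 58.2% of the WT mean of 21.8 ± 0.782 (SD, n = 4). The log2 fold change was -0.78 (SE 0.0857, edgeR adjusted p = 0.00808), and without WT replicate 4 it was -0.76 (edgeR adjusted p = 0.0575), past the threshold no longer. By sex, the log2 ratio of means was -0.62 in males and -0.95 in females, a difference that was not tested.

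Zdhhc1 in WT at day 7 was 7.69, 8.63, 7.65 and 8.82 CPM, and in G34R 5.70, 5.01, 5.61 and 4.97. The groups did not overlap, and males and females gave nearly the same log2 ratio, -0.61 and -0.64. The log2 fold change was -0.62 (SE 0.0976, edgeR adjusted p = 0.0329), and the call ended without any 1 of the 8 animals (edgeR adjusted p from 0.0555 to 0.186).

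Acsl5 and Bok came next. Acsl5 was 54.7, 62.9, 52.1 and 55.2 CPM in WT and 38.6, 32.4, 43.8 and 35.99 in G34R (log2 fold change -0.57, SE 0.0945, edgeR adjusted p = 0.0570). Bok was 34.9, 33.4, 30.8 and 31.5 CPM in WT and 25.0, 22.4, 27.4 and 25.3 in G34R (log2 fold change -0.37, SE 0.0708, edgeR adjusted p = 0.0716). Neither passed, though no G34R animal reached a WT animal in either gene. Both passed under 5 alternative settings, with no filter, DESeq2, limma-voom, no sex covariate or all 22 animals in 1 fit (adjusted p from 5.72e-06 to 0.0375 for Acsl5 and from 0.00195 to 0.0414 for Bok). Acsl5 also passed without G34R replicate 3 (edgeR adjusted p = 0.0160). Acsl5 did not pass under the other 9 of 15 alternatives, nor Bok under the other 10 of 15 (edgeR adjusted p up to 0.215 and 0.221).

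Of the other 6 genes, Hrasls was low at this age, 4.34, 5.75, 5.16 and 4.17 CPM in WT and 3.18, 3.80, 3.47 and 3.56 in G34R. Simc1 was 26.3, 31.3, 27.0 and 27.0 CPM in WT and 25.3, 20.7, 20.6 and 23.5 in G34R. Neither gene's groups overlapped, and neither passed (log2 fold changes -0.46 and -0.30, edgeR adjusted p = 0.317 and 0.252). Sowahb was low at this age, 3.08, 2.58, 2.36 and 1.96 CPM in WT and 1.49, 1.101, 2.09 and 1.72 in G34R (log2 fold change -0.64, SE 0.222, edgeR adjusted p = 0.488). The log2 ratio of Sowahb was -1.13 in males and -0.18 in females, which was not tested. Cib2 had 29.4 to 35.4 CPM in WT and 22.3 to 29.5 in G34R (log2 fold change -0.32, edgeR adjusted p = 0.305). Arhgef15 and Ccdc3 were the nearest to WT, with overlapping groups, log2 fold changes of -0.20 and -0.16 and edgeR adjusted p of 0.638 and 0.787.

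**Figure D3:**
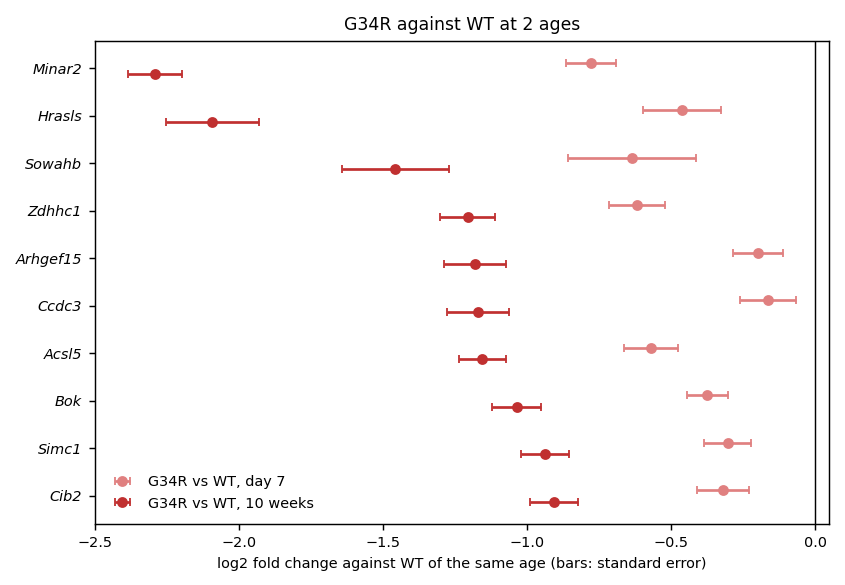
Log2 fold change of G34R against WT of the same age for the 10 genes (linear axis), with 1 point per gene and age and bars of 1 standard error. All points are below 0, and for each gene the 10-week point lies further from 0 than the day-7 point.

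Each gene stood further below WT at 10 weeks than at day 7 in G34R, with Arhgef15 at -1.18 and -0.20 and Minar2 at -2.29 and -0.78 on the log2 scale. The 10-week values chose the genes, so the difference between ages was not tested. The WT course over age differed from gene to gene. From day 7 to 10 weeks, the WT mean of Sowahb was 8.53-fold higher, of Hrasls 3.94-fold, of Zdhhc1 2.26-fold and of Ccdc3 1.89-fold. In G34R the same ratios were 4.85, 1.27, 1.51 and 0.942. The Hrasls mean in G34R was 3.50 ± 0.256 CPM (SD, n = 4) at day 7 and 4.45 ± 1.46 (SD, n = 3) at 10 weeks. In WT it was 4.86 ± 0.736 (SD, n = 4) and 19.1 ± 1.63 (SD, n = 6). The ages are different animals, and the low 10-week mutant level is what chose the gene.

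Simc1 and Cib2 were lower in older animals of both genotypes. The 10-week mean was 0.573 of the day-7 mean for Simc1 in WT and 0.371 in G34R, and for Cib2 0.436 and 0.292. Minar2 had ratios of 0.752 in WT and 0.263 in G34R. Acsl5, Bok and Arhgef15 had ratios of 1.42, 1.30 and 1.05 in WT and 0.951, 0.825 and 0.534 in G34R. Of the 10-week WT and G34R animals all were male, while each day-7 genotype held both sexes, so age and sex are partly confounded in these ratios.

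Around the 10 genes stood the other 80 genes called lower in all 3 comparisons at 10 weeks. The 10 held ranks 3 to 68 of the 90 when ordered by the smallest of the 3 decreases. As a description of the choice and not a test of it, the weakest adjusted p over the 3 comparisons was 0.0235 for Simc1 and 0.0128 for Cib2 inside, and 0.0501 for Cacul1 and 0.0528 for Mcam outside, all in edgeR for G34W. Outside the 10, the 5 with the largest smallest decrease were Gm26782, Egfl6, 4930412C18Rik, Hpdl and Dhdh. Gm26782, an antisense RNA, had log2 fold changes of -1.73, -1.77 and -1.57 in G34R, G34V and G34W at 10 weeks and 0.02 at day 7 (edgeR adjusted p = 0.999). Dhdh, a dihydrodiol dehydrogenase, had -1.20, -1.71 and -1.52, and -0.76 at day 7 (edgeR adjusted p = 0.0513).

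At day 7, 62 of the 80 were below 0, with a median log2 fold change of -0.19, 5 were called lower and 0 higher. Over all 20451 genes tested at day 7 the median was 0.00, and 0.196% were called lower. The 5 were Zfp760, Mfsd9, Fah, 5730409E04Rik and H1f0, named here after their values were seen. Fah, the last enzyme of tyrosine breakdown, had a log2 fold change of -1.05 (edgeR adjusted p = 0.00915), and H1f0, a linker histone of non-dividing cells, had -0.35 (edgeR adjusted p = 0.0265). The 80 share the choice on 10-week values with the 10 genes.

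Relatives of the 10 genes were read in the comparisons with WT. At 10 weeks 1193 of all 21274 genes were called in either direction in G34R, 905 in G34V and 343 in G34W. Lists of this size would therefore hold few calls in any case. Of 20 other DHHC palmitoyltransferases tested, 0 were called in any comparison with WT, and their log2 fold changes lay between -0.49 and 0.29 at 10 weeks. Of 5 other long-chain acyl-CoA synthetases, Acsl3 alone was called, lower in G34R (log2 fold change -0.21, edgeR adjusted p = 0.0264). Of 13 other BCL2-family genes, Bmf alone was called, higher in G34R (0.57, edgeR adjusted p = 0.0466), while Bax and Bak1, the relatives that open the mitochondrial membrane, were at 0.17 and -0.02 and did not pass. Of 2 other SOWAH genes tested, Sowahc was higher in G34R (0.47, edgeR adjusted p = 0.0221) and Sowaha was at -0.10. None of the 5 other ephexin-group exchange factors was called, nor Cib1 (0.04 in G34R), the Hrasls relative Pla2g16 (0.13 in G34R) or Minar1 (-0.33 in G34R, edgeR adjusted p = 0.116). Of 8 other genes of the SMC5/6 complex and its factors, Fam178a (Slf2) was higher in G34V (0.26, edgeR adjusted p = 0.0325) and Ndnl2 (Nsmce3) lower in G34V (-0.29, edgeR adjusted p = 0.0471). Among these calls, those of Bmf, Ndnl2 and Fam178a each ended under 8 to 14 of 23 alternative settings, Acsl3 under 7 and Sowahc under 4.

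Chromatin genes through which H3.3 and DNA methylation act were also read at 10 weeks. Of 23 genes for H3.3, its chaperones, lysine 36 methylation and DNA methylation, 1 was called higher and 1 lower in G34R and likewise in G34V at 10 weeks, and 0 in G34W. Of all 21274 genes, 1193 were called in either direction in G34R, 905 in G34V and 343 in G34W. The 23 genes were not tested against those shares. Their median log2 fold changes were -0.04, 0.07 and 0.03 in G34R, G34V and G34W. Single genes ran from -0.27 to 0.57 in G34R, -0.27 to 0.82 in G34V and -0.81 to 1.05 in G34W. Tet1, which oxidises methylated cytosine, was lower (-0.27 in both, edgeR adjusted p = 0.0379 and 0.0429), and Kdm2b, which binds unmethylated CpG, was higher (0.24 and 0.29, edgeR adjusted p = 0.0400 and 0.0160). Dnmt3a, the methyltransferase itself, had log2 fold changes of 0.00, 0.14 and 0.11 in G34R, G34V and G34W (edgeR adjusted p = 0.993, 0.410 and 0.566). The Tet1 calls ended under 13 and 15 of 23 alternative settings and the Kdm2b calls under 11 and 3.

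The genomic neighbours of the 10 genes were read in the same comparisons. For each gene the nearest tested protein-coding gene on each side and any that overlaps it were taken, 23 in all. Called lower were 0 of 23 in G34R, 0 in G34W and 0 at day 7, and 3 in G34V, with none called higher. Of all genes, 2.66% were called lower in G34R, 1.05% in G34W, 0.196% at day 7 and 2.68% in G34V. At such shares 0 of 23 says little about neighbours, and the 3 in G34V were not tested against their share. The median log2 fold changes of the neighbours were 0.00 in G34R, -0.04 in G34V, -0.07 in G34W and -0.03 at day 7. The 3 were Rpl26 near Arhgef15, Tppp3 next to Zdhhc1 and Adamts19 next to Minar2. Rpl26, a ribosomal protein gene 36.2 kb from Arhgef15, had a log2 fold change of -0.91 in G34V (SE 0.0640, edgeR adjusted p = 2.10e-07), 0.01 in G34R and -0.11 in G34W. At day 7 it had 0.10 with a far larger SE of 0.664. Whether its G34V value reflects the substitution or variation between animals was not tested. Tppp3, a tubulin-binding protein gene 0.897 kb from Zdhhc1, had -0.63 in G34V (SE 0.166, edgeR adjusted p = 0.0469), -0.49 in G34R and -0.37 in G34W. Adamts19 was scarce, at 0.285 CPM in WT, and had -3.07 in G34V (SE 0.765, edgeR adjusted p = 0.0285). The Tppp3 call ended under 13 of 23 alternative settings and the Adamts19 call under 5 of 22.

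**Figure D4:**
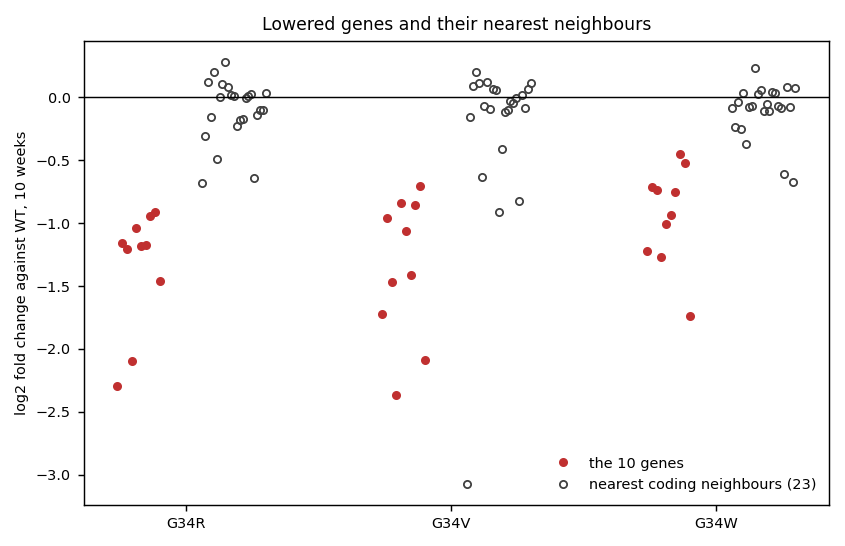
Log2 fold change against WT at 10 weeks (linear axis) of the 10 genes (filled points) and of their 23 nearest tested protein-coding neighbours (open points) in G34R, G34V and G34W. Most neighbours lie near 0, and the lowest open point is Adamts19 in G34V.

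Overlapping transcripts bear on 4 of the 10 genes, since the strand setting of the counting is not given in the sources used here and reads from overlapping genes could then not be told apart. Acsl5 overlaps Zdhhc6, Simc1 overlaps 4833439L19Rik, Cib2 overlaps Sh2d7 and Ccdc3 overlaps the noncoding RNA Gm26776, each on the opposite strand. Zdhhc6 and 4833439L19Rik were close to WT, with log2 fold changes in G34R of 0.12 and 0.00. Sh2d7, at 1.68 CPM in WT, had -0.64 in G34R, -0.82 in G34V and -0.61 in G34W and was not called. Gm26776, at 10.1 CPM in WT, was itself 1 of the 90 genes lower in all 3, with -1.15, -1.35 and -0.72, close to the -1.17, -1.41 and -0.75 of Ccdc3, and -0.12 at day 7. The genes span from 3.90 kb (Sowahb) to 93.1 kb (Ccdc3), against a median of 24.5 kb over tested protein-coding genes.

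Markers of cortical cell types were read in the same libraries, where 2.66% of all genes were called lower in G34R, 2.68% in G34V and 1.05% in G34W. Of 8 markers of excitatory neurons, 1 was called lower in G34R, 0 in G34V and 1 in G34W, and their summed level was 2449 to 2610 CPM in WT, 2296 to 2553 in G34R, 2332 to 2607 in G34V and 2344 to 2703 in G34W. Of 12 endothelial markers, 1 was called lower in G34R and 1 in G34V, with sums of 254 to 303 CPM in WT, 249.1 to 275 in G34R, 262 to 285 in G34V and 292 to 300 in G34W. Of 8 interneuron markers, 1 was called lower in G34R, and their sums were 653 to 728 CPM in WT, 651 to 665 in G34R, 620 to 668 in G34V and 755 to 766 in G34W.

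Markers of myelin and of microglia differed with genotype, while 0 of 8 astrocyte markers were called in any comparison with WT and 1 of 6 precursor markers was called, lower in G34V. Of 12 markers of myelin and mature oligodendrocytes, 0 were called lower in G34R, 6 in G34V and 3 in G34W, with sums of 4662 to 6098 CPM in WT, 3508 to 4498 in G34R, 2903 to 3786 in G34V and 3140 to 4743 in G34W. Of 8 microglial markers, 6 were called higher in G34R, 4 in G34V and 0 in G34W, with sums of 340 to 375 CPM in WT, 550 to 617 in G34R, 404 to 506 in G34V and 374 to 415 in G34W. At day 7, 2 of 8 microglial markers were called higher in G34R (sums of 160 to 179 CPM in WT and 194 to 221 in G34R) and 0 of 11 tested myelin markers were called, with sums of 208 to 269 and 200 to 261 CPM. Markers of regions next to the cortex were not called in any comparison with WT, but choroid plexus sums were 14.4 to 200 CPM in G34W against 151 to 937 in WT, hippocampal sums 34.1 to 60.0 against 55.9 to 92.3, and striatal sums 628 to 664 against 297 to 671. No marker of these lists was at 0 in every animal, and the part of cell makeup in the decreases of the 10 genes was not tested.

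Within groups, the 10 genes did not vary as a block. Residuals of log2(CPM + 0.1) from the group means over 22 animals gave correlations between pairs of the genes with a median of 0.104 over 45 pairs, 29 of them above 0. They ranged from -0.556 for Minar2 with Sowahb to 0.656 for Arhgef15 with Simc1, and pairs share the same libraries and depth.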

How the data were processed

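The authors deposited unnormalised whole-number counts per Ensembl gene for 23 libraries. Per the submitters' processing notes, the tools were featureCounts 1.4.4, STAR 2.3.0e, Trimmomatic 0.32 and bedtools 2.27.1, with the mm10 build. Annotation release and strand setting: not given in the sources used here. Symbols and coordinates came from GENCODE M21 (GRCm38), which held 37607 of 39017 identifiers.

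Groups followed genotype and age labels. The 2 libraries of WT replicate 3 at 10 weeks came from 1 animal and were summed, which leaves 22 animals. Genes tied to sex (175) were left out. Counts were tested with edgeR 4.0.16 in R 4.3.3 (quasi-likelihood, robust, TMM scaling, filterByExpr), with Benjamini-Hochberg adjustment over all genes tested and a threshold of 0.05. The 14 animals at 10 weeks were fitted together without covariates (21274 genes), and the 8 day-7 animals with sex (20451 genes). The SE of a log2 fold change is its ratio to the root of F. The scripts were checked on simulated data.

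The 10 genes, the gene lists and the markers were chosen with earlier results of these data known. Named genes are the 10, relatives and chromatin genes that pass or are closest relatives, and up to 5 other genes lower in all 3 comparisons with at least 1 CPM in WT, ranked by their smallest decrease. Neighbours were named after their values were seen.

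The alternatives tried were no filter, a filter at 1 CPM, RLE scaling, DESeq2 1.42.0, limma 3.58.1 voom with quality weights, only the groups compared, a block by runs of animal numbers, the WT replicate 3 libraries apart, library sets, no sex covariate or all 22 animals in 1 fit for day 7, and each animal left out.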

Additional observations from a re-analysis of the deposited data

Results flagged for a closer look

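In each set of 4 to 10 animals the distance of the most extreme animal from its nearest neighbour was measured against the whole range, for 30 sets of gene and group. Chance alone marks about 1 in 20 sets, and 2 of 30 were marked. Arhgef15 in WT at day 7 had replicate 4 far below the other 3 animals, at 11.1 CPM with a gap of 0.872 of the range. Simc1 in WT at day 7 had replicate 2 far above the other 3, at 31.3 CPM with a gap of 0.855 of the range. Neither gene passed the day-7 test with or without these animals.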

How the results depend on the processing

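The labels give no replicate numbers shared between groups, so single animals were not paired. At 10 weeks each run of animal numbers held WT animals and those of a single substitution. A block by runs of consecutive animal numbers, which the labels do not call a litter or batch, was fitted as an alternative. The 10-week decreases against WT of all 10 genes kept their sign under each alternative. These fits reuse the animals that chose the genes, so the kept sign is no test of the decreases. As a description of the choice, the number of the 10 that met it was 6 with limma-voom, 4 with the number runs and 6 to 10 with 1 animal left out. The 2 day-7 calls became 4 with no filter, DESeq2, limma-voom, no sex covariate or all 22 animals in 1 fit, and 0 to 2 with 1 animal left out. Between G34R and G34V, the 1 call became 0 with only the groups compared or the number runs, and 0 to 1 with 1 animal left out. Between G34R and G34W, the 4 calls became 6 with DESeq2, 1 with limma-voom or only the groups compared, 0 with the number runs and 1 to 5 with 1 animal left out. Between G34V and G34W, the 2 calls became 5 with DESeq2, 1 within the library set, 0 with limma-voom, only the groups compared or the number runs, and 0 to 3 with 1 animal left out. The cause was not tested.

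The sign of 4 small differences that were not called turned: Simc1 between G34R and G34V (-0.141 without G34V replicate 3 to 0.000200 without G34V replicate 2), Bok between G34R and G34W (-0.152 without G34R replicate 1 to 0.0894 without G34R replicate 3, and 0.00962 without G34W replicate 1), Sowahb between G34R and G34W (-0.18 with the number runs) and Arhgef15 between G34V and G34W (-0.262 without G34W replicate 1 to 0.0326 without G34W replicate 2). Over all genes, 63 were called at day 7, and 5 (without WT replicate 4) to 211 (DESeq2) otherwise. The 90 genes lower in all 3 became 11 with the number runs, 20 with limma-voom, 34 within library sets, 57 with only the groups compared, 27 without G34W replicate 1, 59 without G34W replicate 2 and 196 with DESeq2. Called genes in G34R against WT went from 1193 to between 693 and 1661, in G34V from 905 to between 341 and 1328 and in G34W from 343 to between 15 and 916. Between substitutions they went from 49 to between 3 and 281 (G34R and G34V), from 400 to between 6 and 1118 (G34R and G34W) and from 32 to between 4 and 309 (G34V and G34W). With 2 G34W animals, and Sowahb and Hrasls at a few CPM at day 7, precision there is lowest.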
